A study of Homo sapiens with 6 samples.

Results

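The nuclear genes for mitochondrial ribosomal proteins were followed in A375 human melanoma cells with a short hairpin RNA against MMP9 and in control cells. Members were the genes of the deposited table whose symbol is MRPL or MRPS followed by a number, without pseudogenes and antisense genes. The symbols matched 79 of 18539 listed genes, of which 78 are protein-coding, and these 78 are the members below. The remaining match, MRPS30-DT, is a non-coding transcript that starts beside MRPS30 and runs the other way. It had 1.10 ± 0.182 scaled counts in shMMP9 and 0.807 ± 0.309 in shControl (SD, n = 3 each), a log2 fold change of 0.23 that was not called (limma, adjusted p = 0.207), and it is not counted further.

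The study has 3 shMMP9 and 3 shControl RNA-seq libraries. The shMMP9 cells are A375, a line from a malignant melanoma, infected with a lentiviral pLKO.1 vector carrying a hairpin against the MMP9 coding region; the shControl cells carry a control hairpin. The labels describe puromycin selection of the infected cells for 2 weeks and growth in DMEM with 10% fetal bovine serum, and RNA was taken as total RNA. A single MMP9 hairpin is given, so effects of MMP9 loss and other effects of that hairpin cannot be told apart, and nothing in the labels says that replicates were separate cultures, and each p-value then reflects library-to-library spread alone, which may be technical. The hairpin sequence is shown because the shMMP9 libraries share it.
MMP9 hairpin target: cattcagggagacgcccattt

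The libraries held an estimated 21854123 to 28005552 reads over listed genes. Values are scaled read counts, that is, reads divided so that every library has the same upper quartile, and a fold change is the shMMP9 mean minus the shControl mean on the log2(scaled count + 1) scale, tested with limma over the 17194 genes that passed a filter on low values. A gene is called at an adjusted p under 0.05. MMP9, the matrix metalloproteinase targeted by the hairpin, had 16.2, 14.6 and 17.1 scaled counts in shMMP9 against 26.1, 24.3 and 28.7 in shControl, a log2 fold change of -0.69 (SE 0.0847, limma adjusted p = 1.25e-05). Of the melanoma markers, SOX10 averaged 785 scaled counts in shMMP9 and 378 in shControl and MITF 27.7 in shMMP9 and 35.5 in shControl, while PMEL averaged 1.76 in shMMP9 and 1.70 in shControl and MLANA 0.392 in shMMP9 and 0.102 in shControl. Melanoma markers summed to 804 to 883 scaled counts in shMMP9 and 404 to 442 in shControl; keratinocyte markers to 127 to 136 in shMMP9 and 70.0 to 81.6 in shControl; leukocyte markers to 97.7 to 100.2 in shMMP9 and 114 to 135 in shControl. Fibroblast markers summed to 21.5 to 24.9 scaled counts in shMMP9 and 43.4 to 50.8 in shControl, and endothelial markers to 21.8 to 25.3 in shMMP9 and 55.2 to 64.3 in shControl. In these lists 2 melanoma markers rose and 1 fell of 4 tested, 2 of 2 keratinocyte markers rose and 4 of 4 fibroblast markers fell. Of 2 leukocyte markers 1 rose and 1 fell, and of 5 tested endothelial markers 2 rose and 2 fell. Beside these, 25.0% of all tested genes were higher and 32.5% lower. Single genes held most of the keratinocyte and leukocyte sums. KRT10 averaged 112 in shMMP9 and 71.6 in shControl, and CD68 92.4 in shMMP9 and 121 in shControl. In the endothelial list TIE1 averaged 4.56 in shMMP9 and 49.9 in shControl, and KDR 16.1 in shMMP9 and 6.44 in shControl. The part of the markers in the results below was not tested.

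The mitochondrial ribosome is a separate translation machine inside the organelle. It makes the few proteins that the mitochondrial genome encodes, which are core subunits of the respiratory chain and of ATP synthase. Its ribosomal RNAs come from the mitochondrial genome, whereas all of its proteins are encoded in the nucleus, made in the cytosol and imported. Some of those proteins have counterparts in bacterial ribosomes, and the others were added during the evolution of mitochondria. Each protein is present in a fixed number of copies in the particle, and most in a single copy.

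All 78 members passed the filter on low values. Of these 78, 13 (16.7%) were higher in shMMP9 and 30 (38.5%) were lower, and 35 were not called. Of all tested genes, 25.0% were higher and 32.5% were lower, so that 55.1% of members and 57.5% of all genes were called. The shMMP9 and shControl libraries did not overlap for 43 members, 16 with shMMP9 higher and 27 with shMMP9 lower, which is 55.1% of members against 62.7% of all tested genes. Among tested genes in the same range of levels as the members, 31.0% were higher and 33.6% lower.

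Changes of the members were small. The median log2 fold change of the members was -0.04, and that of all tested genes was -0.05; under both other scalings tried, the members' median was 0.01 and that of all genes 0.00. With those scalings 19 members were higher and 22 lower, against 29.2% higher and 28.4% lower of all genes with median-of-ratios scaling, so that 46.3% of called members were higher in place of 30.2%. The median size of a change, without its sign, was 0.175 for members and 0.278 for all tested genes. Among tested genes in the members' range of levels it was 0.249. A single member, MRPS6, passed a log2 change of 1 in size, which 8.17% of all tested genes did. The other called members lay between -0.55 and 0.46. For 62 of the 78 members the 95% interval of the log2 fold change was inside -0.5 to 0.5. The 35 members that were not called had log2 fold changes of -0.10 to 0.16, with 95% intervals that lay within -0.27 to 0.31.

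**Figure D1:**
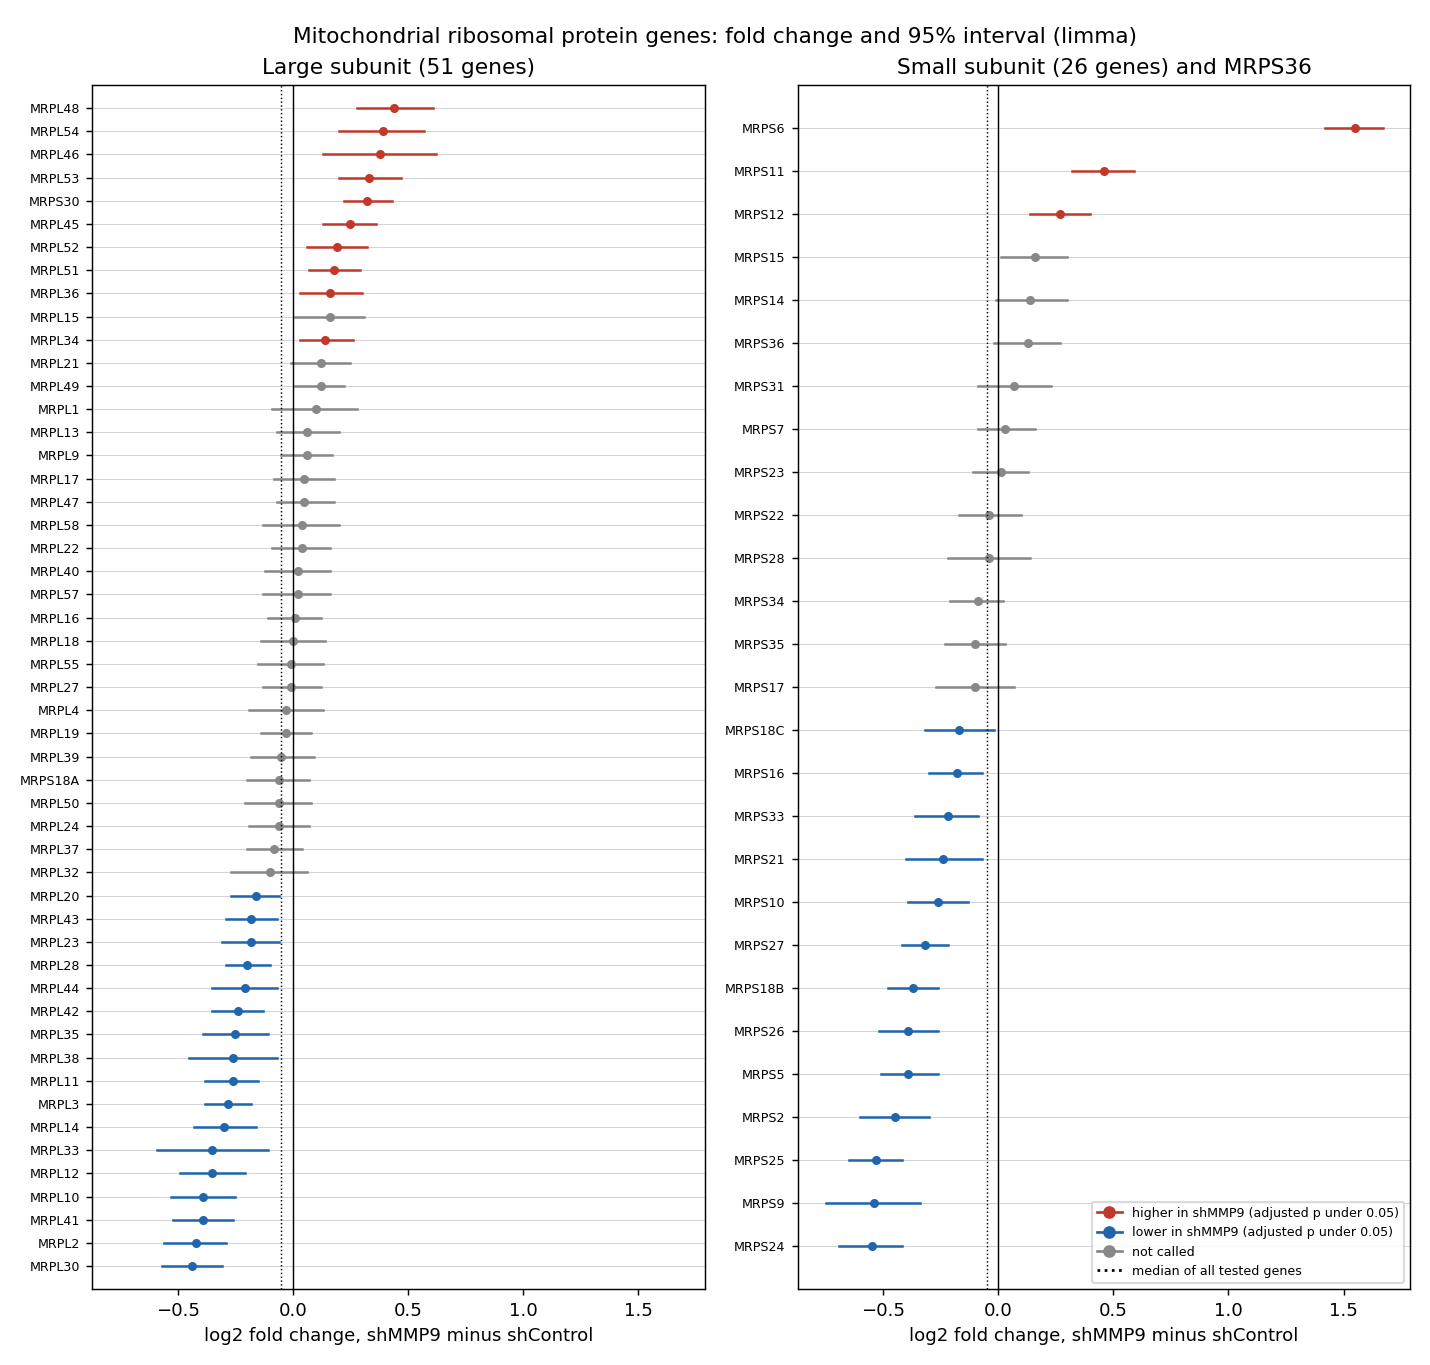
Log2 fold change (shMMP9 minus shControl) of the 78 members, large subunit on the left, small subunit and MRPS36 on the right. Points are limma estimates from 3 shMMP9 and 3 shControl libraries and bars are 95% intervals; the dotted line is the median of all tested genes (-0.05). All members except MRPS6 (1.55) lie between -0.55 and 0.46.

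Summed over the 78 members, scaled counts came to 4492, 4459.9 and 4462 in shMMP9 against 4780.3, 4773 and 4671 in shControl. All 3 shMMP9 sums were below all 3 shControl sums, and the ratio of the means was 0.943. Without MRPS6 the ratio was 0.928. The large subunit summed to 2941 ± 15.4 in shMMP9 and 3089 ± 57.7 in shControl, a ratio of 0.952 (SD, n = 3 each). For the whole small subunit, with MRPS6, the ratio was 0.923. Without MRPS6 the small subunit summed to 1398 ± 7.0 in shMMP9 and 1591 ± 17.3 in shControl (SD, n = 3 each). This ratio was 0.879, but MRPS6 was taken out because of its large rise. The difference between the subunits was not tested. As a share of all estimated reads, the members held 0.514% to 0.517% in shMMP9 and 0.514% to 0.534% in shControl, and the groups overlapped on that scale. In bulk RNA, fewer cells expressing a gene and less RNA per cell cannot be told apart.

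MRPS6, the mitochondrial counterpart of the bacterial small subunit protein S6, had 101, 107 and 97.1 scaled counts in shMMP9 against 35.8, 32.1 and 34.9 in shControl. Every shMMP9 library was above every shControl library by a wide margin. The means were 102 ± 5.0 in shMMP9 and 34.2 ± 1.94 in shControl (SD, n = 3 each), a ratio of 2.98 and a log2 fold change of 1.55 (SE 0.0595, limma adjusted p = 1.35e-10). The gene spans chr21:34073224-34143034 on the plus strand (GRCh38) and overlaps SLC5A3, which encodes a sodium-coupled myo-inositol transporter, on the same strand. The 2 genes share exonic bases in 3 blocks, of 176 bases at chr21:34073570-34073745, 74 bases at chr21:34102835-34102908 and 23 bases at chr21:34103497-34103519.

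SLC5A3 had 664, 692 and 636 scaled counts in shMMP9 against 110.0, 91.4 and 105 in shControl, a log2 fold change of 2.69 (SE 0.0644, limma adjusted p = 2.00e-12). Every shMMP9 library was far above every shControl library, and its change was larger than that of MRPS6, a difference that was not tested. The estimated reads of MRPS6 were not whole numbers in any of the 6 libraries, so its count contains divided reads. MRPS6 had an estimated 2628.4 to 3021.8 reads in shMMP9 and 934.7 to 1003.6 in shControl. For each MRPS6 read there were 6.46 to 6.55 SLC5A3 reads in shMMP9 and 2.85 to 3.08 in shControl. How reads from the shared bases were assigned is not given in the sources used here, and their part in the MRPS6 change was not tested.

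The promoter window of MRPS6 (RefSeq, GRCh38.p14, 250 bases before to 50 after the start) is printed because its last bases lie inside the first exonic block shared with SLC5A3. Capitals would mark matches to the motifs searched, and this window holds none.
MRPS6 (chr21:34073328-34073627, plus strand): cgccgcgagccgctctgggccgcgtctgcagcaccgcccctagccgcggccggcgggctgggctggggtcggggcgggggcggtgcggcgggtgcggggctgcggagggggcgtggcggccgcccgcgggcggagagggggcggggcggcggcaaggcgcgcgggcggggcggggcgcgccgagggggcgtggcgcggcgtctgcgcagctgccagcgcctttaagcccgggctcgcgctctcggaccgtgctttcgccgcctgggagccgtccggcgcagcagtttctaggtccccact

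**Figure D2:**
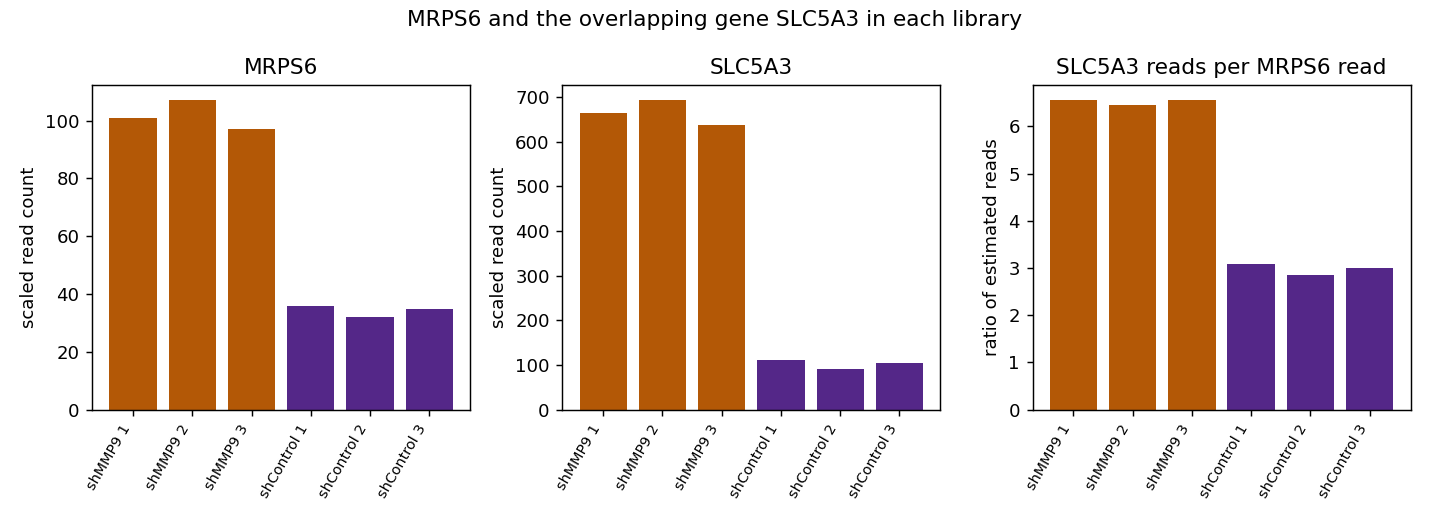
Scaled read counts of MRPS6 (left) and SLC5A3 (middle) and the ratio of their estimated reads (right) in each library; each bar is 1 library. Both genes are higher in all 3 shMMP9 libraries, and the ratio is 6.46 to 6.55 in shMMP9 and 2.85 to 3.08 in shControl.

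Of the 26 small subunit members, 3 rose and 13 fell in shMMP9, and the median log2 fold change was -0.14. Both other scalings gave 5 higher and 10 lower with a median of -0.08, and without shControl replicate 1 there were 5 higher. Lower calls made up 32.5% and higher calls 25.0% of all tested genes, and the difference between the small subunit and all genes was not tested. By origin, 9 of 17 members with a bacterial counterpart and 4 of 9 mitochondria-specific members (MRPS25, MRPS26, MRPS27 and MRPS33) fell. No mitochondria-specific member of the small subunit rose.

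The lower members included proteins of the head of the small subunit, the lobe that swivels during translocation. MRPS24, which in the mitochondrial ribosome takes the place of bacterial S3, had 72.6, 70.8 and 73.5 scaled counts in shMMP9 against 95.8, 114 and 111 in shControl. The groups did not overlap, and the log2 fold change of -0.55 (SE 0.0629, limma adjusted p = 6.26e-06) was the lowest of all members. MRPS9, the counterpart of bacterial S9, had 19.2, 22.3 and 16.4 scaled counts in shMMP9 against 29.5, 28 and 27.5 in shControl. Its shMMP9 libraries were spread more widely than its shControl libraries, yet all lay lower, with a log2 fold change of -0.54 (SE 0.0945, limma adjusted p = 2.71e-04). Of the 8 head members, 4 fell (MRPS24, MRPS9, MRPS10 and MRPS33) and none rose. Of all tested genes, 32.5% were lower and 25.0% higher, and the difference was not tested.

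MRPS25, a mitochondria-specific protein of the small subunit, had 48.3, 50.1 and 50.1 scaled counts in shMMP9 against 76.3, 70.1 and 70.1 in shControl. The libraries of each group lay close together and the groups were well apart (log2 fold change -0.53, SE 0.0544, limma adjusted p = 2.22e-06). MRPS2, the counterpart of bacterial S2, had 53.4, 53.1 and 53.6 in shMMP9 against 64.9, 79.7 and 76.1 in shControl, with a log2 fold change of -0.45 (limma adjusted p = 9.37e-05). MRPS26, also mitochondria-specific, had 77.1, 73.0 and 79.3 in shMMP9 against 94.3, 108 and 99.5 in shControl, with a log2 fold change of -0.39 (limma adjusted p = 7.99e-05). For both of them every shMMP9 library was below every shControl library, and shControl replicate 1 was the lowest of the shControl libraries.

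Besides MRPS6, MRPS11 and MRPS12 rose in the small subunit. MRPS11, the counterpart of bacterial S11, had 45.5, 43.0 and 44.0 scaled counts in shMMP9 against 34.1, 31.7 and 30.0 in shControl. The groups did not overlap, and the log2 fold change was 0.46 (SE 0.0631, limma adjusted p = 3.68e-05). MRPS12, the counterpart of bacterial S12, a protein of the decoding centre, had 51.9, 50.3 and 56.7 scaled counts in shMMP9 against 42.9, 44.6 and 43.5 in shControl. Its log2 fold change was 0.27 (SE 0.0591, limma adjusted p = 0.00148). MRPS12 shares exonic bases with SARS2, the mitochondrial seryl-tRNA synthetase, whose log2 fold change was -0.15 and was not called (limma adjusted p = 0.0993).

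Of the 51 large subunit members, 10 (19.6%) rose and 17 (33.3%) fell in shMMP9, beside 25.0% higher and 32.5% lower of all tested genes. Their median log2 fold change was -0.01, or 0.05 with either other scaling, which gave 13 higher and 12 lower. Without shMMP9 replicate 1 the number higher was 6. By origin, 2 of 31 members with a bacterial counterpart rose and 12 fell, and 8 of 20 mitochondria-specific members rose and 5 fell. The 2 that rose were MRPL34 and MRPL36, and both calls were lost without shMMP9 replicate 1 or 3 or shControl replicate 2 or 3, that of MRPL36 also without shMMP9 replicate 2. No test was made of the difference between the classes.

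MRPL48, a mitochondria-specific protein of the central protuberance, the crest of the large subunit that contacts the small one, had 30.3, 27.9 and 27.2 scaled counts in shMMP9 against 22.5, 19.1 and 20.4 in shControl. The groups were apart, with a log2 fold change of 0.44 (SE 0.0775, limma adjusted p = 2.75e-04). MRPL46, also of the protuberance, had 25.7, 26.4 and 27.6 in shMMP9 against 24.5, 20.9 and 16.2 in shControl, with a log2 fold change of 0.38 (SE 0.113, limma adjusted p = 0.0121). The shControl libraries of MRPL46 were widely spread, and without shControl replicate 3 its log2 fold change was 0.22 and it was no longer called (limma adjusted p = 0.0516). Of the 8 members in the central protuberance, 2 rose and 1, MRPL38, fell, beside 25.0% higher and 32.5% lower of all tested genes.

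MRPL54, a mitochondria-specific member, had 28.7, 26.8 and 28.1 scaled counts in shMMP9 against 24.3, 19.4 and 19.8 in shControl (log2 fold change 0.39, limma adjusted p = 0.00162). MRPL53, another one, had 78.6, 74.6 and 85.8 in shMMP9 against 64.8, 65.7 and 58.5 in shControl (log2 fold change 0.33, limma adjusted p = 5.71e-04). In both, the lowest shMMP9 library was above the highest shControl library. MRPL53 shares 608 exonic bases on the same strand with CCDC142, which rose with a log2 fold change of 0.63 (limma adjusted p = 1.04e-04). Estimated reads of MRPL53 were whole in 1 of 6 libraries, and the part of shared reads in its change was not tested. MRPS30 is named for the small subunit but sits in the large one; it had 75.5, 75.3 and 76.2 scaled counts in shMMP9 against 59.0, 61.4 and 60.6 in shControl. Its libraries agreed closely within each group, and its log2 fold change was 0.32 (SE 0.0483, limma adjusted p = 7.75e-05).

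The 3 members classed here as proteins of the stalk, the flexible arm that recruits translation factors, all fell, beside 32.5% of all tested genes. MRPL53 and MRPL54, which rose, were not placed in that class. MRPL12, the counterpart of bacterial L7/L12 and the member present in several copies per ribosome, had 125, 118 and 125 scaled counts in shMMP9 against 141, 171 and 159.9 in shControl (log2 fold change -0.35, limma adjusted p = 4.22e-04). MRPL10, which anchors MRPL12 to the particle, had 71.0, 59.9 and 69.9 in shMMP9 against 90.1, 84.7 and 88.6 in shControl (log2 fold change -0.39, limma adjusted p = 1.83e-04). MRPL11, at the base of the stalk, had 43.4, 44.5 and 41.8 in shMMP9 against 53.2, 52.4 and 50.7 in shControl (log2 fold change -0.26, limma adjusted p = 9.78e-04). In each of these 3 genes the groups did not overlap.

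Other large subunit members also fell. MRPL30 had 51.9, 51.9 and 45.2 scaled counts in shMMP9 against 68.4, 67.3 and 67.1 in shControl, the largest fall of the large subunit (log2 fold change -0.44, SE 0.0608, limma adjusted p = 3.76e-05). MRPL2, the counterpart of bacterial L2 and a protein near the peptidyl transferase centre, had 39.6, 35.3 and 36.8 in shMMP9 against 53.0, 49.8 and 47.8 in shControl (log2 fold change -0.42, limma adjusted p = 7.58e-05). MRPL41, a mitochondria-specific member, had 76.6, 80.0 and 83.6 in shMMP9 against 101, 115 and 100.4 in shControl (log2 fold change -0.39, limma adjusted p = 1.06e-04). The shMMP9 libraries were below the shControl libraries in all 3 genes. Calls over all tested genes were 25.0% higher and 32.5% lower. At the exit of the tunnel through which the new chain leaves, 1 of 8 members rose (MRPL45) and 2 fell (MRPL23 and MRPL44). Both falls were lost with either other scaling, and that of MRPL23 also without shMMP9 replicate 1 or 3.

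**Figure D3:**
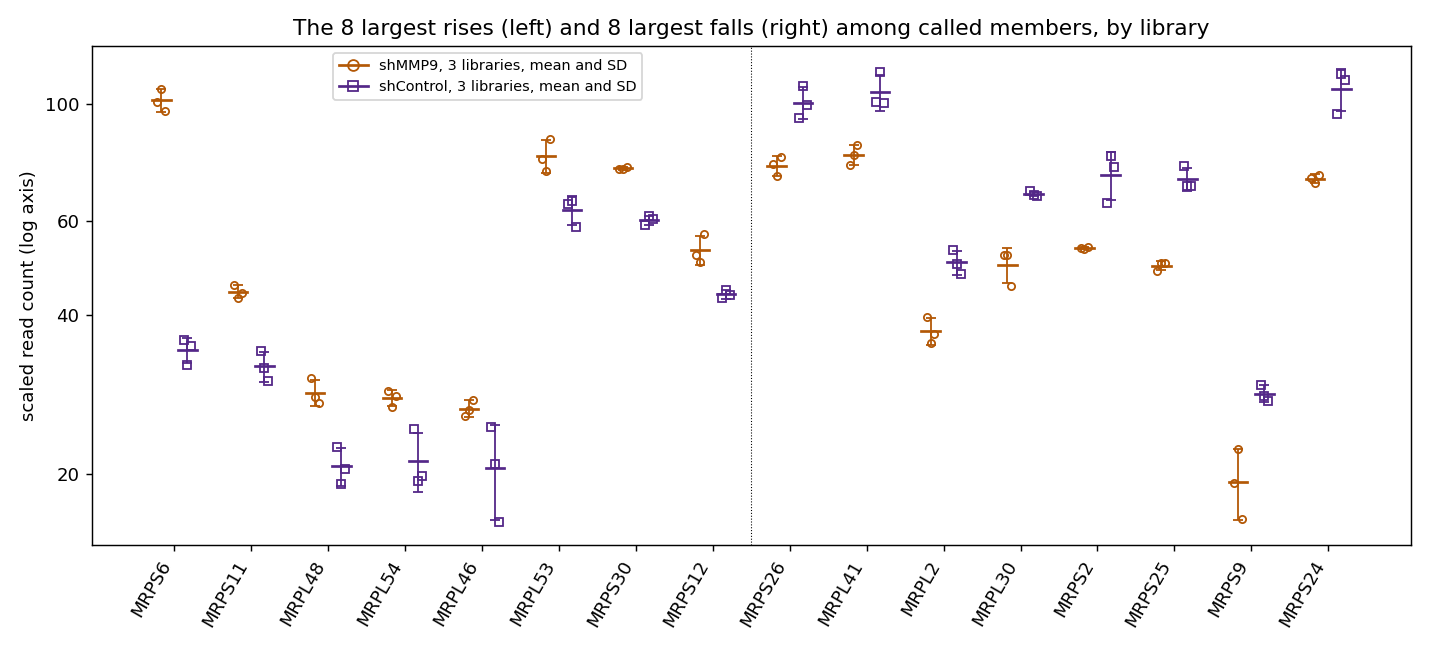
Scaled read count (log axis) of the 8 members with the largest rises and the 8 with the largest falls. Symbols are libraries (circles shMMP9, squares shControl), with the mean and SD of 3 libraries. Within each of these genes the groups do not overlap; MRPL46 has the closest groups, with 25.7 scaled counts in the lowest shMMP9 library and 24.5 in the highest shControl library.

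Of 43 called members, 3 had overlapping groups and were picked out after their values were seen. MRPL33 had 49.0, 49.6 and 43.3 scaled counts in shMMP9 against 75, 49.5 and 59.7 in shControl, MRPL38 had 57.4, 52.9 and 60.9 in shMMP9 against 59.0, 78.2 and 69.1 in shControl, and MRPS21 had 75.1, 67.2 and 68.3 in shMMP9 against 92.8, 73.8 and 82.6 in shControl. All were called lower, with log2 fold changes of -0.35, -0.26 and -0.24, and in each the shControl libraries were the more widely spread. The calls were lost without shMMP9 replicate 3 for MRPL33, without shMMP9 replicate 1 or 2 or shControl replicate 2 or 3 for MRPL38, and without shMMP9 replicate 2 or 3 for MRPS21.

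The MRPS18 paralogs are 3 relatives of bacterial S18 that occupy different places in the mitochondrial ribosome. MRPS18B had 65.6, 62.2 and 64.1 scaled counts in shMMP9 against 80.5, 87.1 and 81.1 in shControl, a clear fall with a log2 fold change of -0.37 (SE 0.0522, limma adjusted p = 4.72e-05). MRPS18C had 31.0, 28.7 and 30.8 in shMMP9 against 37.0, 33.4 and 32.1 in shControl, a log2 fold change of -0.17 (limma adjusted p = 0.0482). That call was lost in 10 of 15 alternative fits, including those without any 1 of the 3 shMMP9 libraries and without shControl replicate 1 or 2. MRPS18C shares 1956 exonic bases with ABRAXAS1 on the opposite strand. ABRAXAS1 fell with a log2 fold change of -0.87 (limma adjusted p = 2.12e-05), and the part of shared reads in the MRPS18C change was not tested. MRPS18A, which sits in the large subunit, had 31.3, 34.6 and 34.1 in shMMP9 against 35.5, 35.5 and 33.5 in shControl, with overlapping groups and a log2 fold change of -0.06 (95% interval -0.20 to 0.07). The differences between the paralogs were not tested.

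MRPS36 carries a ribosomal name but is a component of the 2-oxoglutarate dehydrogenase complex, and it was counted in neither subunit. It had 29.9, 29.1 and 32.8 scaled counts in shMMP9 against 28.2, 28 and 27.5 in shControl. The groups did not overlap, but its log2 fold change of 0.13 was not called (limma adjusted p = 0.116). With either other scaling it was 0.18 and was called (limma adjusted p = 0.0291 with median-of-ratios scaling).

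Levels can be compared between genes only per length, here as the mean scaled count of the 6 libraries per kilobase of the principal transcript in GENCODE 29. The median member had 37.7 scaled counts per kilobase, and the highest was 30.9 times the lowest. MRPS34 (139), MRPL12 (136) and MRPL24 (127) were highest on this scale. MRPL42 (4.50), MRPL50 (7.72) and MRPL1 (8.14) were lowest, and MRPL42 is annotated with a principal transcript of 15582 bases, the longest of all members. Among these 6, MRPL12 and MRPL42 fell. MRPL42 had a log2 fold change of -0.24 (limma adjusted p = 0.00135), whereas MRPS34 (-0.09), MRPL24 (-0.06), MRPL50 (-0.06) and MRPL1 (0.10) were not called. Without shControl replicate 1, MRPS34 was called lower (log2 fold change -0.14, limma adjusted p = 0.0109).

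**Figure D4:**
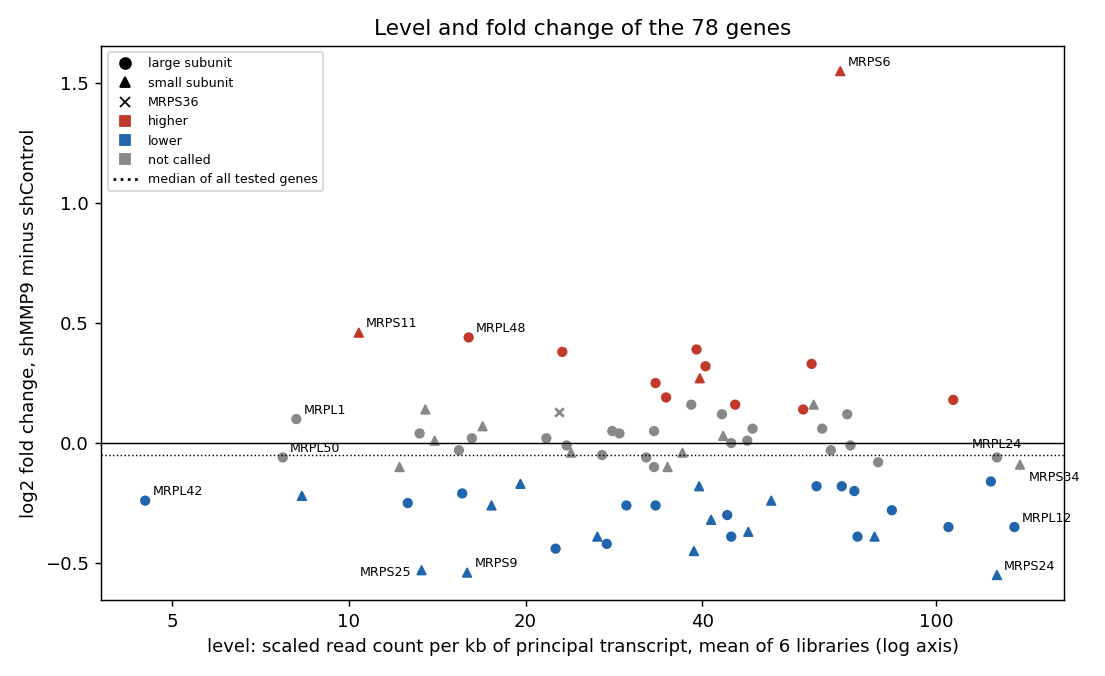
Log2 fold change (shMMP9 minus shControl) of the 78 members against their level per kilobase of principal transcript (log axis, mean of 6 libraries). Each symbol is 1 gene, shaped by subunit and coloured by call. Members called lower span 4.50 to 136 scaled counts per kilobase, and members called higher span 10.4 to 107.

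Many of these genes start close to another gene that runs the opposite way. Of the 78 members, 28 (35.9%) had such a divergent partner with its start within 1000 bases, against 15.4% of 14048 tested protein-coding genes. Of all single tested genes 57.5% were called, and calls were not counted over all divergent pairs, so the pair counts have no background. In 28 distinct pairs, both genes were called in 7, and 4 of these 7 moved in opposite directions. These 4 were MRPL11 with PELI3, MRPL41 with PNPLA7, MRPL51 with NCAPD2 and MRPS18B with PPP1R10. Both genes fell in MRPL30 with MITD1 and in MRPS27 with PTCD2; these pairs were named after their values were seen, and MRPL51 lost its call without shMMP9 replicate 1 (limma adjusted p = 0.0503). MRPL46 and MRPS11 were the 1 pair made of 2 members, with starts 34 bases apart in GENCODE 29, and both rose. The windows of both genes are printed because the genes lie head to head and moved the same way. The windows follow the RefSeq starts, which are 320 bases apart, and that of MRPS11 lies 255 bases downstream of its GENCODE start, so its window does not hold the bases between the GENCODE starts. The windows overlap and run on opposite strands.
MRPS11 (chr15:88467458-88467757, plus strand): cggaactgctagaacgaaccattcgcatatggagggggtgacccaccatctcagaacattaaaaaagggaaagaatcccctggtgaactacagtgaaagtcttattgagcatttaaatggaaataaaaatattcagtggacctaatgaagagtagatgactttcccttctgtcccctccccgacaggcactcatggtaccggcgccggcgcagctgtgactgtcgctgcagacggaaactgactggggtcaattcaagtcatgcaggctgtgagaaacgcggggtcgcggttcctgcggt
MRPL46 (chr15:88467339-88467638, minus strand): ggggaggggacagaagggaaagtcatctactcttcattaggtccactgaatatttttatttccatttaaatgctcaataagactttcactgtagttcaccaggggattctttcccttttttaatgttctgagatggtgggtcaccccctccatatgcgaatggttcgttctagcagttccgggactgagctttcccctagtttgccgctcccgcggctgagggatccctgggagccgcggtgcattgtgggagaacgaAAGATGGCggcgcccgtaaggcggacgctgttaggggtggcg

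Promoter windows were found for 69 members, and exact matches to 4 motifs were sought on both strands. The ETS motif CCGGAAG, bound by factors such as GABP, was in 29 members (42.0%) and in 15.6% of the windows of tested genes and 10.3% of all 35116 windows. The YY1 motif AAGATGGC was in 20 members (29%), 4.30% of the windows of tested genes and 2.89% of all windows. The NRF1 motif GCGCANGCG was in 13 members (18.8%), 11.6% of the windows of tested genes and 7.52% of all windows, and the E-box CACGTG in 6 members (8.70%), 9.15% and 7.26%. The ETS and YY1 motifs can overlap by their shared AAG, so that 1 stretch can count for both. A match describes letters in a window and is not a shown binding site.

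Members with each motif moved in both directions. Of 29 members with the ETS motif, 6 rose and 13 fell; of 20 with the YY1 motif, 7 rose and 7 fell; of 13 with the NRF1 motif, 2 rose and 7 fell; of 6 with the E-box, 2 rose and 1 fell. As shares, 20.7% of the ETS, 35.0% of the YY1 and 15.4% of the NRF1 members rose and 44.8%, 35.0% and 53.8% of them fell, beside 25.0% higher and 32.5% lower of all tested genes; the differences were not tested. Of 21 members with none of them, 3 rose and 6 fell. The windows of the members with the lowest log2 fold changes that hold a match are printed, with the match in capitals. That of MRPS24 has the YY1 motif from base +20 and that of MRPS9 has the NRF1 motif from base -39, the MRPL46 window above has the YY1 motif from base +9, and MRPS11 has none.
MRPS24 (chr7:43869468-43869767, minus strand): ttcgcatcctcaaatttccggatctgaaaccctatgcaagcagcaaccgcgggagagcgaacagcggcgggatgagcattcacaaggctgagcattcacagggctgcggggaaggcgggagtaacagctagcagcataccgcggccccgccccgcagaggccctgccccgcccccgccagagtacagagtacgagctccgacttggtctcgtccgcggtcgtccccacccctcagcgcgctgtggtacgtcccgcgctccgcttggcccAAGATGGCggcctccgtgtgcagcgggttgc
MRPS9 (chr2:105037819-105038118, plus strand): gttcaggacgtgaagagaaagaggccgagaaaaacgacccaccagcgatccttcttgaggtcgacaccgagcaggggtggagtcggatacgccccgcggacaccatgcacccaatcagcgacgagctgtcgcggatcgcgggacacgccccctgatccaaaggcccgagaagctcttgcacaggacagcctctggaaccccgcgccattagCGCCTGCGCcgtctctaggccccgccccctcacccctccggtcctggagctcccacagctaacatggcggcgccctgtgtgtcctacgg

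The 5 tested mitochondrial ribosomal proteins with other symbols were DAP3, PTCD3, CHCHD1, AURKAIP1 and GADD45GIP1, with log2 fold changes of -0.01 to 0.08. None was called, beside 57.5% of all tested genes (25.0% higher and 32.5% lower), and the difference was not tested. With either other scaling 1 of these 5 was higher, beside 29.2% of all tested genes with median-of-ratios scaling. DAP3, a GTP-binding small subunit protein, had 157, 156 and 155 scaled counts in shMMP9 against 159, 154 and 152 in shControl. Its groups overlapped.

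Assembly factors of the mitochondrial ribosome moved both ways, with 6 of 26 (23.1%) higher and 9 (34.6%) lower. These shares were near the 25.0% higher and 32.5% lower of all tested genes. The median log2 fold change of the assembly factors was -0.02, or 0.04 with either other scaling. RBFA, which matures the small subunit rRNA, had 14.5, 14.6 and 15.4 scaled counts in shMMP9 against 27.0, 26 and 23.7 in shControl, a log2 fold change of -0.75 (limma adjusted p = 2.16e-06). NOA1, a GTPase of small subunit assembly, and METTL15, a methyltransferase of the small subunit rRNA, each had a log2 fold change of -0.52 (limma adjusted p = 1.05e-05 for NOA1 and 5.98e-05 for METTL15). MRM2, a methyltransferase of the large subunit rRNA, rose with a log2 fold change of 0.38 (limma adjusted p = 8.09e-05).

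Calls over all tested genes were 25.0% higher and 32.5% lower, with a median of -0.05, or 0.00 with either other scaling. Of 17 mitochondrial translation factors, 6 rose and 6 fell (35.3% each), with a median of -0.01 that was 0.05 with either other scaling. C12orf65, a release factor homologue that rescues stalled mitochondrial ribosomes, rose with a log2 fold change of 0.79 (limma adjusted p = 4.35e-07), and GFM1, an elongation factor, rose by 0.29 (limma adjusted p = 9.66e-04). LRPPRC, which stabilises mitochondrial mRNAs, had a log2 fold change of -0.36 (limma adjusted p = 2.88e-05) and MTIF2, an initiation factor, one of -0.33 (limma adjusted p = 3.99e-04). Of 20 genes that charge mitochondrial tRNAs, 1 rose and 7 fell, with a median of -0.15; with either other scaling 3 rose and 6 fell, with a median of -0.09. Among those that fell were YARS2 (-0.48), EARS2 (-0.38) and NARS2 (-0.36), which charge the tyrosine, glutamate and asparagine tRNAs.

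Of 18 genes that copy, transcribe and process mitochondrial DNA and its RNA, 3 (16.7%) rose and 8 (44.4%) fell, with a median of -0.11. With either other scaling 4 rose and 6 fell, with a median of -0.05. All tested genes stood at 25.0% higher and 32.5% lower, and the differences were not tested. POLRMT, the mitochondrial RNA polymerase, had 92.2, 88.4 and 98.3 scaled counts in shMMP9 against 115, 151 and 138 in shControl, a log2 fold change of -0.52 (limma adjusted p = 1.07e-04). POLG2, the accessory subunit of the DNA polymerase, fell (-0.47), and HSD17B10, a subunit of mitochondrial RNase P, rose (0.39). Of 9 regulators of nuclear genes for mitochondrial proteins, 1 (11.1%) rose and 4 (44.4%) fell. MYC had 9.64, 8.29 and 9.90 scaled counts in shMMP9 against 18, 21.2 and 20.2 in shControl, a log2 fold change of -1.02 (limma adjusted p = 1.01e-06), and PPARGC1A had 2.01, 2.30 and 2.25 in shMMP9 against 5.49, 4.68 and 4.78 in shControl, a log2 fold change of -0.91 (limma adjusted p = 2.55e-05). PPRC1 fell (-0.30) and GABPA, the DNA-binding part of GABP, rose (0.24).

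The mitochondrially encoded genes give the rRNAs of this ribosome and the mRNAs that it translates. Of these 15 genes, 14 (93.3%) were lower in shMMP9 and none higher, beside 32.5% lower of all tested genes. The median log2 fold change of the 15 genes was -1.22, and 13 of them were lower with either other scaling. The small subunit rRNA MT-RNR1 had 83.8, 89.5 and 79.3 scaled counts in shMMP9 against 341, 267 and 318 in shControl (log2 fold change -1.85, limma adjusted p = 2.94e-10). The large subunit rRNA MT-RNR2 had 256, 269 and 222 in shMMP9 against 1003, 859 and 1053 in shControl (log2 fold change -1.96, limma adjusted p = 2.53e-10). Neither rRNA had overlapping groups. Both rRNAs had fewer scaled counts than the mRNA MT-CO1, which averaged 1446 in shMMP9 and 4557 in shControl. What library preparation did to rRNA is not described here, so these counts may not measure rRNA levels in the cells. MT-ND3, the gene that was not called, had a log2 fold change of -0.06 (limma adjusted p = 0.688). Reads of genes with an MT- symbol were 0.617% to 0.708% of the total in shMMP9 and 1.64% to 1.79% in shControl.

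Cytosolic ribosomal proteins, which make up the other ribosome of the cell, showed 27 of 84 genes (32.1%) higher and 16 (19.0%) lower. Shares over all tested genes were 25.0% higher and 32.5% lower. The median log2 fold change of the 84 genes was 0.08. The groups did not overlap for 38 of the 84, 20 with shMMP9 higher and 18 with shMMP9 lower, beside 62.7% of all tested genes. Summed scaled counts of the 85 listed genes were 80402, 79609 and 77588 in shMMP9 against 83012, 74736 and 76705 in shControl. On this sum shControl replicate 1 was above every shMMP9 library. With median-of-ratios scaling 36 were higher and 11 lower, with a median of 0.14. RPL22L1 (-1.16), RPL17 (-0.61), RPL3 (-0.61) and RPL12 (-0.55) had the smallest adjusted p-values and all fell. Many of these genes have near-identical pseudogenes, so their counts are uncertain.

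**Figure D5:**
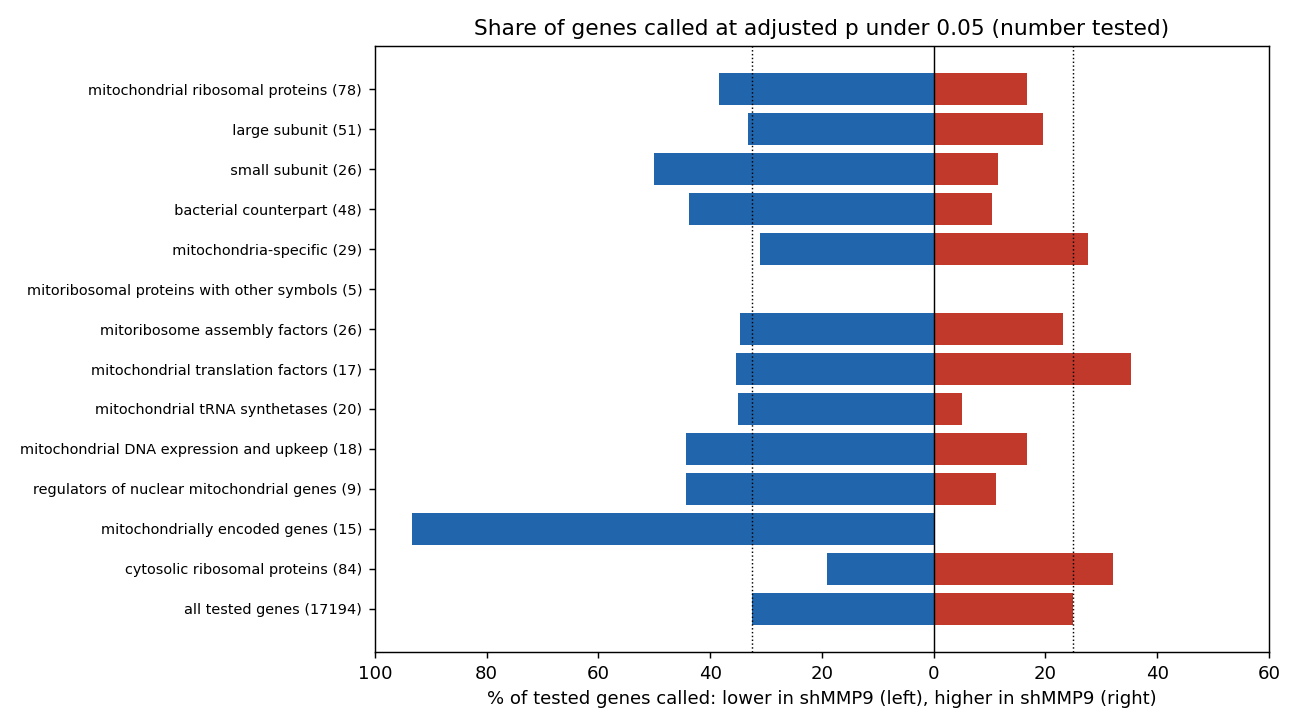
Percent of tested genes called lower (blue, to the left) and higher (red, to the right) in shMMP9 at an adjusted p under 0.05, with the number tested in brackets. Dotted lines mark the shares of all tested genes, 32.5% lower and 25.0% higher. The bars of the members stand at 38.5% lower and 16.7% higher, and that of the mitochondrially encoded genes at 93.3% lower.

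Reads shared between genes touch many members. Beside the counts below, 25.0% of all tested genes were higher and 32.5% lower. In 33 members, exons overlapped those of another listed gene, and of these 7 rose and 14 fell; of the 45 without an overlap, 6 rose and 16 fell. Estimated reads were whole numbers in all 6 libraries for 41 members, of which 5 rose and 14 fell, and fractional in 1 library or more for 37 members, of which 8 rose and 16 fell. MRPL48, MRPL54, MRPS9, MRPL41 and MRPS26 had whole reads in every library, whereas MRPS6, MRPS11, MRPL46, MRPS12 and MRPL30 had them in none.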

How the data were processed

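Libraries made from total RNA of A375 cells were sequenced, 3 shMMP9 and 3 shControl. Any selection or depletion of RNA in library preparation is not described here. Groups and replicate numbers come from the labels. STAR 2.6.1d, Partek and hg38 are named in the submitters' processing notes; how reads were counted, on which annotation and strand, is not stated there or in the labels. The authors deposited 1 value per gene and library on a log2 scale. Their steps show log2(scaled count + 1) with 1 upper quartile for all libraries. For 64.6% to 67.7% of listed genes per library, the estimated read count was whole within 0.01. Depth was 21854123 to 28005552 estimated reads, and the member with the fewest had 310.0 reads in a library. No 2 libraries agreed within sampling noise (chi-square per gene 2.48 to 13.3).

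limma 3.58.1 (R 4.3.3) with a variance trend was fitted to the deposited log2 values of 17194 genes with 10 estimated reads at the median depth in 3 or more libraries and 15 in total, with Benjamini-Hochberg adjustment over all of them. On simulated data it recovered 88.1% of 1.5-fold and 100.0% of 2-fold and 4-fold changes. There 67, 67 and 66 of 17194 genes were changed by these sizes, with 1 spread setting for all genes. Smaller changes, which all members but MRPS6 showed, were not simulated, so these rates do not describe the calls of those members. Lengths, overlaps and positions are from GENCODE 29, whose symbols matched 99.9% of listed genes, and promoter windows from RefSeq (GRCh38.p14); 131 of 139 genes of the companion and marker lists were found. The members, lists and motifs were chosen with earlier results of these data known. Genes named are MMP9, the 8 largest rises and falls among called members, members past a log2 change of 1, the MRPS18 paralogs, the stalk, MRPS36, the 3 highest and lowest levels per kilobase, and up to 4 genes per companion list with the smallest adjusted p, of which 1 is not reported here; others are said to be chosen after their values were seen or are named by a count. Replicate numbers do not pair samples: deviations of same-numbered libraries correlated at 0.04, -0.13 and -0.03. Alternatives were other scalings, pseudocounts, filters and fits, and each library left out.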

Additional observations from a re-analysis of the deposited data

How the results depend on the processing

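Each gene's test was repeated under 15 alternatives, and no member that was called in any fit reversed direction. Of 43 called members, 29 kept the call in all 15 (8 higher and 21 lower) and 14 lost it in at least 1; of 35 members not called, 26 were called in none and 9 in at least 1. Median-of-ratios scaling and scaling to the sum of listed genes each gave 5 higher small subunit members (3 as reported) and moved the median log2 fold change of the members to 0.014 and 0.012, against -0.044 as reported, with the median of all genes moving likewise, since a scaling shifts all genes of a library together by construction. At an adjusted p under 0.01, 6 large subunit members were higher and 11 lower, and the share of all tested genes at that threshold was not counted. Restricted to members with whole reads in all libraries, an alternative chosen after seeing the data that has fewer members by construction, 5 were higher and 14 lower with a median of -0.006. Leaving out 1 library gave 9 to 17 members higher and 25 to 32 lower, with a median of -0.069 to -0.026. For the large subunit 6 to 12 were higher and 13 to 18 lower, and for the small subunit 3 to 5 higher and 11 to 14 lower. Over all tested genes, leaving out 1 library gave 3759 to 4511 higher and 4917 to 5714 lower, against 4304 and 5584 as reported. With a replicate block, 11 members were higher and 29 lower, beside 4211 higher and 5486 lower of all tested genes. Of the members named in the text MRPS18C (limma adjusted p = 0.0534), MRPL34 and MRPL36 lost their calls with the block, and replicate numbers share only a number. Leaving out the members on chromosomes 13 and 18 changed neither count. Calls near the threshold (MRPL46, MRPS18C, MRPS34 and MRPS36) are given with their genes. The smallest log2 fold change called in a member was 0.14 in size, while members not called reached 0.16.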
